A study of Bos taurus with 36 samples.

Results

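Glycolysis is run by enzymes that exist as isoforms, each encoded by its own gene, and 9 of these genes were followed in the deposited counts of bovine fetal organs and maternal blood. They were the rows of the count table whose Entrez identifier carries the symbol HK1, HK2, PFKM, PFKL, PFKP, ALDOA, PKM, LDHA or LDHB in bovine RefSeq, that is 9 of 35092 genes, and all 9 were found. The identifiers are 280817 for HK1, 788926 for HK2, 506544 for PFKM, 508683 for PFKL, 507119 for PFKP, 509566 for ALDOA, 512571 for PKM, 281274 for LDHA and 281275 for LDHB. All 9 passed the filter on low counts in every comparison.

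Hexokinases (HK1, HK2) trap glucose in the cell as glucose 6-phosphate. Phosphofructokinase, with muscle (PFKM), liver (PFKL) and platelet (PFKP) subunits that combine into tetramers, makes the committed step. Aldolase (ALDOA, with ALDOC as its brain form) splits the 6-carbon sugar, pyruvate kinase (PKM, with PKLR in liver and red cells) makes pyruvate and ATP, and lactate dehydrogenase interconverts pyruvate and lactate with M subunits from LDHA and H subunits from LDHB. In the adult, the H subunit is best known from the heart and the M subunit from skeletal muscle and liver, while the fetal heart is known to rely more on glycolysis and lactate than the adult heart.

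The samples came from 10 male fetuses recovered on Day 42 of gestation and from the heifers carrying them. Day 7 embryos had been transferred either on Day 7 of the recipient's cycle (ET_D7, 5 fetuses) or on Day 9 (ET_D9, 5 fetuses), so that the second group was advanced relative to its embryo. Numbers run from the lightest, fetus 1 (1.253 g), to the heaviest, fetus 10 (1.69 g), and within a tissue each library is labelled as a different fetus or dam. The ET_D7 fetuses weighed at most 1.37 g and the ET_D9 fetuses at least 1.396 g, so fetal weight and transfer group cannot be told apart where a trend is described. The kit for the organs selected mRNA and differed from that for blood, so blood levels stand beside the organ levels without a test. As whole organs were sequenced, fewer cells of a type and less RNA per cell cannot be told apart.

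Total counts per library ran from 18231089 to 40812354, which leaves every isoform with at least 23 counts in each library. Of 145 pairs of libraries from the same tissue, 2 differed by less than the sampling noise: the gonads of fetuses 6 and 8, and the livers of fetuses 1 and 2. Each pair was counted as 1 sample with its mean count, which gave 9 heart, 8 gonad, 7 liver and 10 blood samples. The libraries labelled gonad carried few of the gonadal markers listed. None of 9 Sertoli and none of 7 Leydig cell genes was higher in every one of them than in every heart and liver library, and 1 of 8 germ cell genes was, KIT, with a median of 28.2 CPM (counts scaled to the depth of the library) against at most 5.25 CPM elsewhere. GATA4, carried by supporting cells of the fetal gonad, had a median of 0.0463 CPM, NR5A1 0.667 CPM, AMH 1.52 CPM and the germ cell gene DDX4 0.0853 CPM, while the Sertoli genes CLDN11 and SOX9 had medians of 9.11 and 3.16 CPM, above those of heart (0.662 and 2.37 CPM) and liver (0 and 0.278 CPM). Of 10 genes listed for mesonephros and kidney, 7 were higher in every one of them, PAX2 with a median of 113 CPM. The other 3 were higher in every liver than in both other organs. Their medians in liver and in the libraries labelled gonad were 130 and 3.75 CPM for CDH16, 42.0 and 9.45 CPM for LRP2, and 11.6 and 2.42 CPM for CUBN. The libraries labelled gonad are therefore called the labelled gonad. Hearts and livers carried their own markers, with 12 of 12 cardiomyocyte and 12 of 12 hepatocyte genes above both other organs in every library. Summed cardiomyocyte markers, scaled within each tissue, reached 3735, 1986 and 647 CPM in the livers of fetuses 3, 4 and 5, against 27.8 to 119 CPM in the other livers. They reached 4084 and 1492 CPM in the blood of the dams of fetuses 2 and 5, against 0.638 to 23.0 CPM in the other dams. Summed markers of skeletal muscle were also highest there, at 365, 320 and 88.8 CPM in these livers and 272 and 141 CPM in these dams. They were 19.7 to 53.4 CPM in the other livers, 4.71 to 12.5 CPM in the other dams and 389 to 1134 CPM in the hearts. Cardiac and skeletal muscle RNA were not told apart in these libraries. Mitochondrially encoded genes took 17.1% to 57.3% of counts in the heart, 3.31% to 7.23% in the labelled gonad, 16.3% to 36.8% in the liver and 2.14% to 3.29% in blood.

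The first question was which isoform each organ used. Against the labelled gonad, 8 of the 9 genes were higher in the heart and none lower, and against the liver, 7 were higher and none lower (adjusted p-value under 0.05, edgeR's quasi-likelihood test on all organ samples together). Over all 25095 genes tested, 45.6% differed between heart and labelled gonad and 57.3% between heart and liver, 22.7% and 26.8% being higher in the heart. Between labelled gonad and liver, 7 of the 9 differed, 4 higher and 3 lower in the labelled gonad, against 62.6% of all genes, 29.8% higher and 32.8% lower. The median log2 fold change over the 9 genes was 1.54 for heart over labelled gonad and 2.96 for heart over liver, and over all genes it was −0.10 and 0.00. With RLE in place of TMM factors, the median over all genes became −0.13 for heart over liver and −0.11 for labelled gonad over liver. Samples of the organs did not overlap for 8 genes between heart and labelled gonad, where 23.4% of genes had no overlap. The same was true of 7 genes between heart and liver and of 5 between labelled gonad and liver, where 26.1% and 31.8% of genes had none. A fit without the labelled gonad again gave 7 genes for heart against liver, and a fit without the livers of fetuses 3, 4 and 5 gave 8, 7 and 6 genes.

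**Figure D1:**
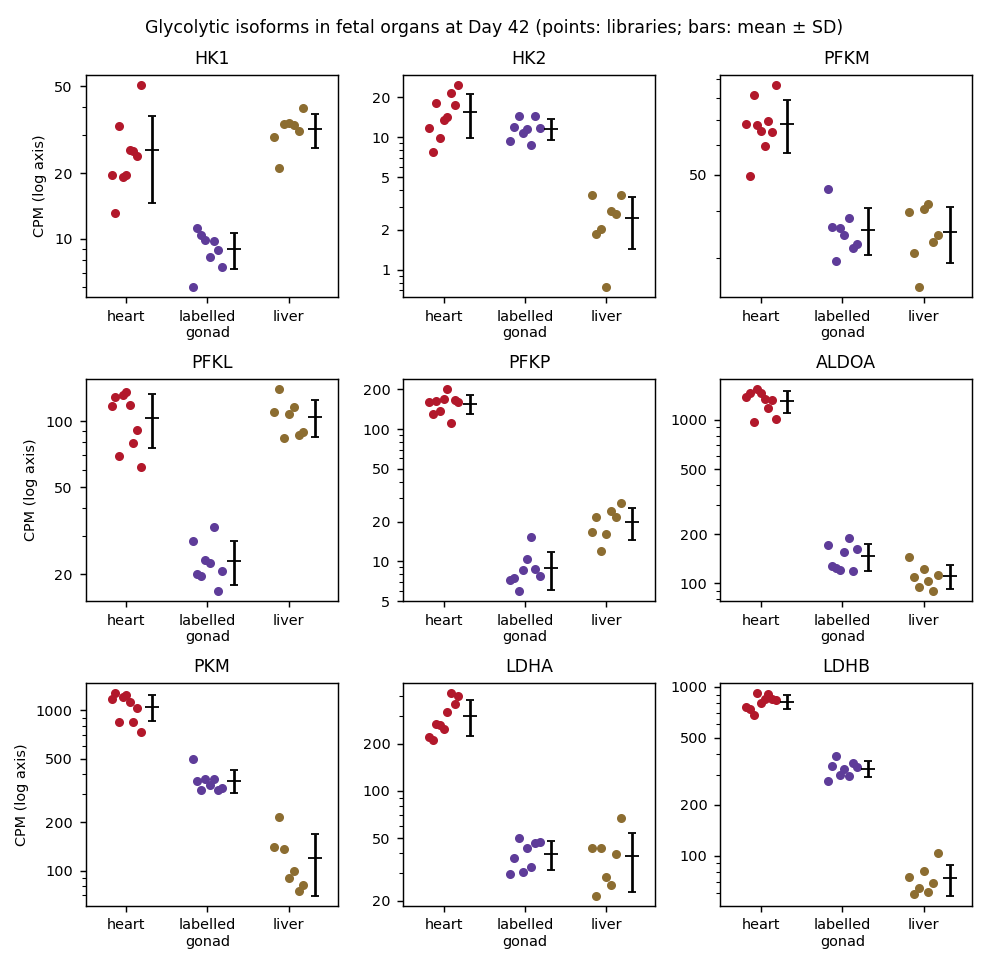
Level of each isoform in CPM (log axis, TMM-scaled over the organ samples) in the heart (n = 9), the labelled gonad (n = 8) and the liver (n = 7). Points are samples and bars the mean ± SD; ALDOA, PKM and LDHB lie higher in every heart than in any other organ sample, and HK2 lies lowest in the liver.

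HK1, the hexokinase that most tissues express, had a lowest, median and highest level of 13.2, 24.0 and 50.8 CPM in the heart, 6.01, 9.31 and 11.2 CPM in the labelled gonad and 21.1, 33.3 and 39.9 CPM in the liver. Every sample of the labelled gonad lay below every heart and liver, and hearts and livers overlapped. The log2 fold change was 1.51 for heart over labelled gonad (SE 0.20, adjusted p = 6.18e-07, edgeR) and −1.82 for labelled gonad over liver (SE 0.21, adjusted p = 3.27e-08, edgeR), and −0.31 for heart over liver (SE 0.20, adjusted p = 0.191, edgeR). The last became −0.47 with RLE factors (adjusted p = 0.0401, edgeR).

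HK2, the hexokinase of muscle and fat that responds to insulin, followed another order. It had a lowest, median and highest level of 7.75, 14.2 and 25.0 CPM in the heart, 8.82, 11.6 and 14.5 CPM in the labelled gonad and 0.738, 2.61 and 3.67 CPM in the liver. The liver samples lay below all others, and heart and labelled gonad overlapped. HK2 was 6.27 times higher in the heart than in the liver (log2 2.65, SE 0.29, adjusted p = 1.06e-08, edgeR) and 4.71 times higher in the labelled gonad (log2 2.24, SE 0.29, adjusted p = 1.67e-07, edgeR), while heart and labelled gonad differed by 0.41 on the log2 scale (SE 0.25, adjusted p = 0.184, edgeR). In the liver, the lowest HK2 count was 23, so its values rest on few reads.

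The use of HK2 relative to HK1 was compared as the log2 ratio of their counts in the same sample, which needs no scaling between libraries. Such a ratio includes the lengths of the transcripts, so only its differences between tissues are read. The HK2:HK1 ratio was −0.71 ± 0.26 in the heart (SD, n = 9), 0.38 ± 0.31 in the labelled gonad (SD, n = 8) and −3.80 ± 0.81 in the liver (SD, n = 7). No sample of one organ overlapped another organ. The liver ratio was 3.09 lower on the log2 scale than that of the heart (SE 0.32, exact permutation test, two-sided, adjusted p = 0.000367 over 21 comparisons) and 4.17 lower than that of the labelled gonad (SE 0.33, exact permutation test, adjusted p = 0.000408). The labelled gonad exceeded the heart by 1.09 (SE 0.14, exact permutation test, adjusted p = 0.000346).

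The phosphofructokinase subunits separated the organs by different subunits. PFKM, the muscle subunit, had a lowest, median and highest level of 49.8, 67.9 and 86.9 CPM in the heart, 29.5, 35.3 and 46.0 CPM in the labelled gonad and 25.2, 34.6 and 41.9 CPM in the liver. All hearts were above all other samples, and labelled gonad and liver overlapped. It was 1.91 times higher in the heart than in the labelled gonad (log2 0.94, SE 0.12, adjusted p = 2.32e-07, edgeR) and 1.94 times higher than in the liver (log2 0.96, SE 0.12, adjusted p = 2.09e-07, edgeR). The labelled gonad differed from the liver by 0.02 on the log2 scale (SE 0.12, adjusted p = 0.897, edgeR).

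PFKL, the liver subunit, was low only in the labelled gonad among the 3 organs. Its lowest, median and highest levels were 61.9, 118 and 136 CPM in the heart, 16.7, 21.7 and 32.8 CPM in the labelled gonad and 83.6, 108 and 140 CPM in the liver. Hearts and livers overlapped over most of their range, and the labelled gonad lay below both. Heart and liver differed by −0.01 on the log2 scale (SE 0.17, adjusted p = 0.997, edgeR), the heart was 4.51 times higher than the labelled gonad (log2 2.17, SE 0.17, adjusted p = 6.42e-11, edgeR), and the labelled gonad was lower than the liver (log2 −2.18, SE 0.18, adjusted p = 4.93e-11, edgeR).

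PFKP, the subunit named for platelets, was the one with the widest range over organs. It ran from 111 to 202 CPM in the heart (median 160), from 5.94 to 15.2 CPM in the labelled gonad (median 8.20) and from 11.95 to 27.6 CPM in the liver (median 21.7). The hearts stood apart from all other samples, and the labelled gonad and the liver overlapped at their edges. PFKP was 17.4 times higher in the heart than in the labelled gonad (log2 4.12, SE 0.19, adjusted p = 1.36e-15, edgeR) and 7.76 times higher than in the liver (log2 2.96, SE 0.19, adjusted p = 4.86e-13, edgeR), and lower in the labelled gonad than in the liver (log2 −1.16, SE 0.18, adjusted p = 3.48e-06, edgeR). Summed platelet markers, scaled within each organ, were 13.5 to 33.8 CPM in the hearts and 263 to 405 CPM in the livers. Their part in the PFKP level was not tested.

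Both subunit ratios differed between all organs. The PFKL:PFKM log2 ratio was 0.57 ± 0.63 in the heart (SD, n = 9), −0.65 ± 0.21 in the labelled gonad (SD, n = 8) and 1.57 ± 0.29 in the liver (SD, n = 7). Hearts spread from −0.49 to 1.37 and touched both other organs, the 2 lowest being fetuses 10 and 3, while no sample of the labelled gonad reached a liver. The liver ratio was 2.01 times that of the heart (SE 0.24 on the log2 scale, exact permutation test, adjusted p = 0.000432) and 4.67 times that of the labelled gonad (SE 0.13 on the log2 scale, exact permutation test, adjusted p = 0.000408). The PFKP:PFKM log2 ratio was 1.18 ± 0.32 in the heart, −2.04 ± 0.40 in the labelled gonad and −0.84 ± 0.39 in the liver. The hearts again stood alone, higher than the labelled gonad by 3.22 (SE 0.18, exact permutation test, adjusted p = 0.000346) and than the liver by 2.03 (SE 0.18, exact permutation test, adjusted p = 0.000367).

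ALDOA, the aldolase of muscle and most other tissues, had a lowest, median and highest level of 973, 1331 and 1546 CPM in the heart, 118, 142 and 190 CPM in the labelled gonad and 89.3, 109 and 144 CPM in the liver. Every heart lay far above the other organs, which overlapped. It was 8.85 times higher in the heart than in the labelled gonad (log2 3.15, SE 0.15, adjusted p = 1.10e-15, edgeR) and 11.7 times higher than in the liver (log2 3.55, SE 0.16, adjusted p = 1.85e-16, edgeR). The labelled gonad exceeded the liver by 0.40 (SE 0.14, adjusted p = 0.0155, edgeR), a difference that was 0.25 with RLE factors (adjusted p = 0.116, edgeR) and 0.38 without the livers of fetuses 3, 4 and 5 (adjusted p = 0.0602, edgeR). With the fetus as a block it was 0.33 (adjusted p = 0.118, edgeR).

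ALDOC, the aldolase known from brain, had medians of 4.56, 4.19 and 4.65 CPM in heart, labelled gonad and liver. The ALDOC:ALDOA log2 ratio was lowest in the heart, at −8.29 ± 0.63, against −5.09 ± 0.07 in the labelled gonad and −4.66 ± 0.43 in the liver.

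PKM, which yields the M1 and M2 pyruvate kinases by splicing that gene counts do not resolve, had a lowest, median and highest level of 737, 1123 and 1284 CPM in the heart, 317, 352 and 496 CPM in the labelled gonad and 75.1, 99.1 and 217 CPM in the liver. The 3 organs did not overlap. It was 2.90 times higher in the heart than in the labelled gonad (log2 1.54, SE 0.18, adjusted p = 1.15e-07, edgeR), 8.81 times higher in the heart than in the liver (log2 3.14, SE 0.21, adjusted p = 7.75e-13, edgeR) and 3.04 times higher in the labelled gonad than in the liver (log2 1.60, SE 0.20, adjusted p = 9.26e-08, edgeR).

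PKLR, the pyruvate kinase of hepatocytes and red cells, ran from 415 to 716 CPM in the liver, from 10.3 to 35.2 CPM in the heart and from 3.36 to 9.65 CPM in the labelled gonad. The PKLR:PKM log2 ratio was 2.33 ± 0.77 in the liver (SD, n = 7), −5.71 ± 0.57 in the heart (SD, n = 9) and −6.08 ± 0.55 in the labelled gonad (SD, n = 8). The liver stood 8.05 above the heart (SE 0.35, exact permutation test, adjusted p = 0.000367) and 8.41 above the labelled gonad (SE 0.35, exact permutation test, adjusted p = 0.000408), and heart and labelled gonad differed by 0.37 (SE 0.27, exact permutation test, adjusted p = 0.196). Within the liver the ratio was lowest in fetus 3, at 0.94, then 1.81 in fetus 4 and 2.07 in fetuses 1 and 2, and between 2.78 and 2.96 in the other 4. Fetuses 3 and 4 were also the livers with the most cardiomyocyte markers. The liver also had the most erythroid markers of the organs, a sum of 3401 to 5896 CPM against 157 to 251 CPM in the heart (scaled within each organ). Their part in the PKLR level was not tested.

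LDHA, the M subunit, had a lowest, median and highest level of 210, 267 and 421 CPM in the heart, 29.5, 40.4 and 50.0 CPM in the labelled gonad and 21.5, 39.6 and 67.2 CPM in the liver. Hearts were apart from the other organs, which overlapped. LDHA was 7.58 times higher in the heart than in the labelled gonad (log2 2.92, SE 0.21, adjusted p = 8.99e-12, edgeR) and 7.86 times higher than in the liver (log2 2.97, SE 0.22, adjusted p = 8.60e-12, edgeR), while labelled gonad and liver differed by 0.05 (SE 0.21, adjusted p = 0.842, edgeR).

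LDHB, the H subunit, was graded over the organs. It ran from 681 to 919 CPM in the heart (median 841), from 276 to 391 CPM in the labelled gonad (median 330) and from 59.4 to 103 CPM in the liver (median 69.2). None of the organs overlapped. LDHB was 2.50 times higher in the heart than in the labelled gonad (log2 1.32, SE 0.12, adjusted p = 4.00e-10, edgeR), 11.2 times higher in the heart than in the liver (log2 3.48, SE 0.13, adjusted p = 1.32e-17, edgeR) and 4.46 times higher in the labelled gonad than in the liver (log2 2.16, SE 0.13, adjusted p = 7.26e-14, edgeR).

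The LDHB:LDHA ratio was highest in the labelled gonad. It was 3.06 ± 0.18 on the log2 scale in the labelled gonad (SD, n = 8), 1.48 ± 0.30 in the heart (SD, n = 9) and 1.01 ± 0.41 in the liver (SD, n = 7). Every sample of the labelled gonad lay above every heart, by 1.58 on average (SE 0.12, exact permutation test, adjusted p = 0.000346), and above every liver, by 2.06 (SE 0.17, exact permutation test, adjusted p = 0.000408). Hearts and livers overlapped and differed by 0.47 (SE 0.18, exact permutation test, adjusted p = 0.0229), and without fetus 1, 2 or 4 that adjusted p was 0.0727, 0.0734 or 0.0804. The paired comparison left out each fetus whose library of either organ was counted as 1 sample with another's. That left 6 fetuses for heart against either other organ and 5 for labelled gonad against liver. Within these fetuses, each difference between organs called here kept its direction, but none passed (smallest adjusted p = 0.0547, paired exact permutation test). The smallest p that this test allows before adjustment is 0.03125 with 6 fetuses and 0.0625 with 5, so it was too small to tell most ratios apart.

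**Figure D2:**
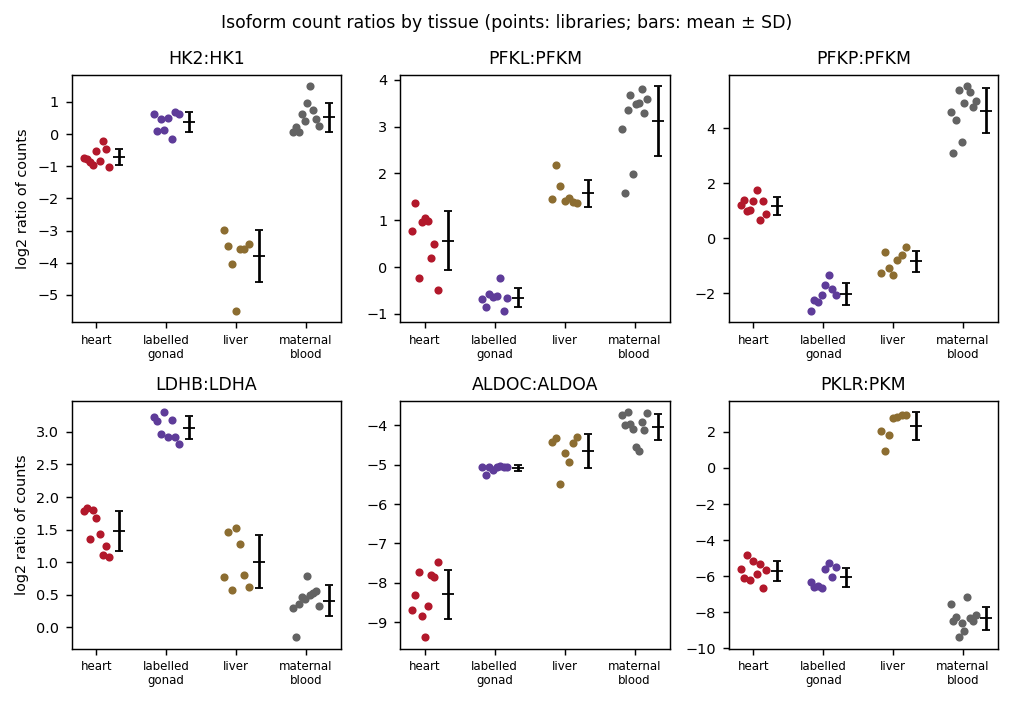
Log2 ratio of the counts of paired isoforms in each sample of the heart (n = 9), labelled gonad (n = 8), liver (n = 7) and maternal blood (n = 10), with bars for the mean ± SD. The liver has the highest PKLR:PKM ratio and the lowest HK2:HK1 ratio, and the labelled gonad the highest LDHB:LDHA ratio.

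Of the 22 other glycolysis genes listed, which included the regulators PFKFB1 to PFKFB4, 21 had a count in the organs. The heart was higher than the labelled gonad for 12 and lower for 4, where 22.7% and 22.9% of all genes were. Against the liver, the heart was higher for 10 and lower for 5, where 26.8% and 30.5% of all genes were. The labelled gonad was higher than the liver for 6 and lower for 9, where 29.8% and 32.8% of all genes were. TPI1 was listed at 0 in every library. The largest differences between heart and labelled gonad were those of HK3 (log2 6.09, SE 0.27, adjusted p = 5.19e-16, edgeR), a hexokinase of white blood cells, of the muscle phosphoglycerate mutase PGAM2 (log2 4.80), of the muscle enolase ENO3 (log2 4.04) and of the neuronal enolase ENO2, which fell by 3.44 on the log2 scale. HK3 ran from 67.3 to 206 CPM in the hearts, where summed neutrophil markers were at most 5.43 CPM (scaled within the heart).

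Against the liver, the heart differed most in HKDC1 (log2 −6.97), a gene related to the hexokinases, HK3 (log2 5.35), the liver form of the fructose 2,6-bisphosphate enzyme PFKFB1 (log2 −5.15) and PGAM2 (log2 4.85). Between labelled gonad and liver, large differences were those of PFKFB1 (log2 −7.63), PKLR (log2 −6.66) and HKDC1 (log2 −4.01). All of these had an adjusted p-value under 0.05 with edgeR.

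Genes whose level followed an isoform most closely over the 24 organ samples were found by Pearson's r of log2(CPM + 1) among 10179 genes with a mean of at least 10 CPM. The samples share 3 organs, so r mostly reflects organ differences. ALDOA was closest to HSPB3 (r = 0.991), a small heat shock protein of muscle, and FLNC (r = 0.991), the filamin of muscle, and PFKP to the alpha-kinases ALPK3 (r = 0.985) and ALPK2 (r = 0.984). LDHA was closest to NDUFA4 (r = 0.990) and NDUFB6 (r = 0.976), proteins of the respiratory chain, LDHB to NTAQ1 (r = 0.989) and BZW2 (r = 0.989), and PKM to REM1 (r = 0.987) and SLC4A3 (r = 0.987), an anion exchanger. PFKL was nearest to TCEA3 (r = 0.984) and DNLZ (r = 0.984), PFKM to PLEKHA7 (r = 0.931) and TCAP (r = 0.927), HK1 to GLRX5 (r = 0.954) and RNF181 (r = 0.931), and HK2 to RND3 (r = 0.971) and ACKR3 (r = 0.966).

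Maternal blood had its own isoform use, given here in CPM scaled within blood and with no test against the organs. PFKM had a lowest, median and highest level of 2.28, 2.90 and 9.98 CPM, while PFKP ran from 56.7 to 138 CPM and PFKL from 25.1 to 33.3 CPM. The PFKP:PFKM log2 ratio was 4.65 ± 0.80 and the PFKL:PFKM ratio 3.12 ± 0.75 (SD, n = 10), both above every value of these ratios in the heart. The dams of fetuses 2 and 5 had the highest PFKM, at 9.98 and 6.30 CPM, and also the most cardiomyocyte markers.

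HK2 ran from 45.1 to 173 CPM in blood (median 60.4) and HK1 from 43.3 to 61.0 CPM (median 45.2), and the HK2:HK1 log2 ratio was 0.53 ± 0.45 (SD, n = 10). The dam of fetus 7 had the highest HK1, HK2, ALDOA, LDHA, LDHB and PFKP levels of all 10 dams, with the lowest PKM, and its summed neutrophil markers were the lowest, at 2143 CPM against 2263 to 3963 CPM in the others. ALDOA ran from 405 to 670 CPM and PKM from 532 to 796 CPM. LDHA ran from 122 to 176 CPM and LDHB from 145 to 249 CPM, and the LDHB:LDHA log2 ratio of 0.41 ± 0.24 was lower than in any organ on average.

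The second question was whether isoform levels changed along fetal weight, fitted within each tissue as a log2 change per 0.1 g. In the heart, LDHA passed and the other 8 genes did not, where 6.78% of 16250 genes passed and 5.23% did so with a rising slope. LDHA was 171, 167, 208, 199 and 190 CPM (scaled within the heart) in the ET_D7 fetuses 1 to 5, and 247, 325, 281 and 308 CPM in the ET_D9 fetuses 6, 8, 9 and 10. Every ET_D9 heart lay above every ET_D7 heart, and the share of all genes with such a separation was not counted. As the transfer groups split by weight, this separation adds nothing to the slope. The slope was 0.21 (SE 0.04, adjusted p = 0.0395, edgeR), 1.15-fold per 0.1 g.

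The call for LDHA was not stable. With the transfer group as a covariate the slope was 0.11 (adjusted p = 0.699, edgeR), and without the 2 heaviest fetuses it was 0.32 (adjusted p = 0.427, edgeR). Leaving out single fetuses gave slopes from 0.19 to 0.23, with adjusted p-values from 0.0105 to 0.354, and the call was lost without fetus 1, 2, 4, 5, 8 or 10. As 2 groups, ET_D9 exceeded ET_D7 by 0.63 on the log2 scale (adjusted p = 0.0638, edgeR). The mitochondrially encoded share was 45.1% and 57.3% in the hearts of fetuses 1 and 2 and 28.5% and 17.1% in those of fetuses 9 and 10. With that share as a covariate the slope of LDHA was 0.16 (adjusted p = 0.549, edgeR). Transfer group and this share both ran along with weight, and under either covariate no gene of the heart passed. The loss of the call under them is therefore not particular to LDHA.

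LDHB had a slope of 0.04 in the heart (SE 0.04, adjusted p = 0.467, edgeR), with levels from 530 to 702 CPM that overlapped between transfer groups. The LDHB:LDHA log2 ratio was 1.79, 1.82, 1.35, 1.81 and 1.68 in fetuses 1 to 5 and 1.43, 1.11, 1.25 and 1.07 in fetuses 6, 8, 9 and 10. Fetus 3 was the only ET_D7 heart within the range of the ET_D9 hearts.

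**Figure D3:**
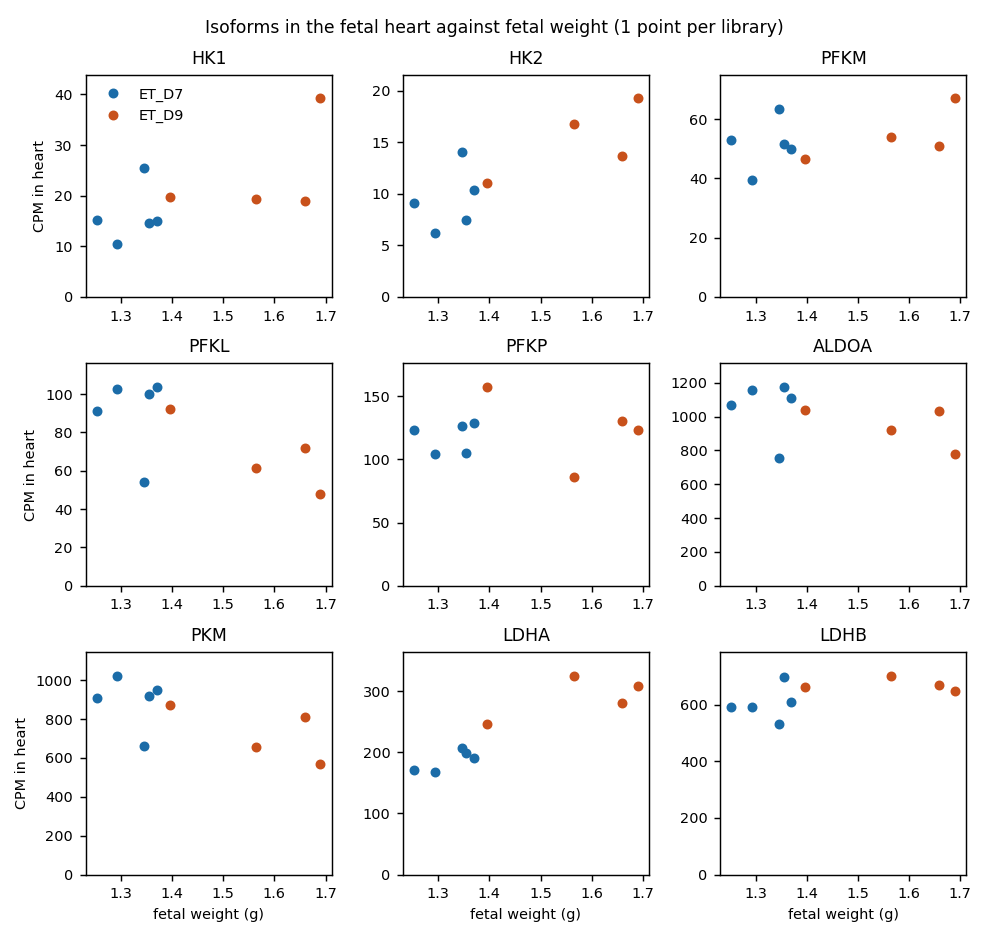
Level of each isoform in the heart (CPM scaled within the heart) against fetal weight in grams, 1 point per library, with ET_D7 fetuses in blue and ET_D9 fetuses in orange. LDHA is higher in the 4 ET_D9 hearts than in the 5 ET_D7 hearts, which are those of the lighter fetuses, and HK1 is highest in fetus 10.

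Both hexokinases had positive slopes in the heart that did not pass. HK2 was 9.13, 6.17, 14.1, 7.45 and 10.4 CPM in fetuses 1 to 5 and 11.1, 16.8, 13.7 and 19.3 CPM in fetuses 6, 8, 9 and 10, a slope of 0.25 (SE 0.07, adjusted p = 0.0540, edgeR). With DESeq2 its adjusted p was 0.00592, and with the mitochondrial share as a covariate the slope was 0.05 (adjusted p = 0.800, edgeR). HK1 was 39.2 CPM in fetus 10 and 10.5 to 25.5 CPM in the other hearts, a slope of 0.23 (SE 0.08, adjusted p = 0.0974, edgeR), and −0.02 with the mitochondrial share as a covariate (adjusted p = 0.955, edgeR).

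PFKL and PKM had negative slopes in the heart that did not pass either. PFKL was 53.9 and 47.8 CPM in fetuses 3 and 10 and 61.6 to 104 CPM in the other hearts, a slope of −0.18 (SE 0.07, adjusted p = 0.112, edgeR). PKM was 661 and 569 CPM in fetuses 3 and 10, 658 CPM in fetus 8 and 813 to 1022 CPM in the others, a slope of −0.12 (SE 0.05, adjusted p = 0.144, edgeR). Fetuses 3 and 10 also had the lowest cardiomyocyte marker sums, 34117 and 37263 CPM against 41608 to 47062 CPM, and the 2 lowest mitochondrial shares of the hearts, and their part in these levels was not tested. PFKM, PFKP and ALDOA had slopes of 0.06, −0.01 and −0.07, with adjusted p-values of 0.394, 0.942 and 0.375 (edgeR). Without fetus 3, 5 of the 9 genes passed, namely HK1, HK2, PFKL, PKM and LDHA, where 24.8% of 15907 genes did.

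Over all 16250 genes tested in the heart, 5.23% passed with a rising slope and 1.54% with a falling slope. Among the other glycolysis genes there, 3 of 20 tested rose with weight and none fell. These were the phosphoglycerate mutase PGAM1 (slope 0.39, SE 0.08, adjusted p = 0.0395, edgeR), the ADP-dependent sugar kinase ADPGK (0.33, SE 0.07, adjusted p = 0.0419, edgeR) and the glucose phosphate isomerase GPI (0.22, SE 0.05, adjusted p = 0.0395, edgeR).

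In the liver, none of the 9 genes passed, and 1.59% of 16211 genes did. PKM had the largest slope, −0.29 (SE 0.09, adjusted p = 0.206, edgeR). It was 110 CPM in fetuses 1 and 2 (scaled within the liver), 184 CPM in fetus 3, 118 CPM in fetus 4, 73.1 CPM in fetus 5 and 68.3, 62.5 and 61.1 CPM in fetuses 8, 9 and 10. The heavier livers were the lowest, and the highest was the liver with the most cardiomyocyte markers. Without the livers of fetuses 3, 4 and 5 the slope was −0.20 (adjusted p = 0.200, edgeR). ALDOA had a slope of −0.10, PFKL of −0.11 and PFKP of 0.14, with adjusted p-values of 0.480, 0.546 and 0.488 (edgeR).

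**Figure D4:**
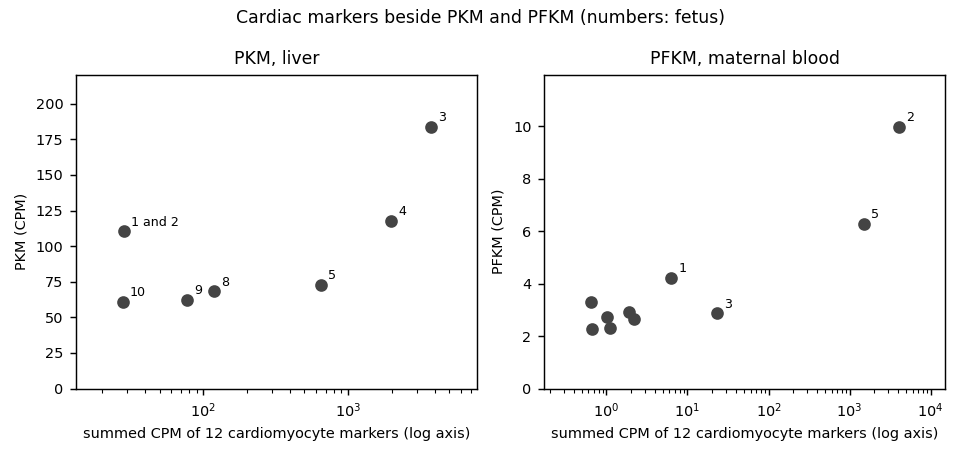
Level of PKM in the liver (left) and of PFKM in maternal blood (right), in CPM scaled within the tissue, against the summed CPM of 12 cardiomyocyte markers (log axis), 1 point per sample. Numbers give the fetus (in blood, only for sums above 5 CPM); the highest PKM is in the liver of fetus 3 and the highest PFKM in the dam of fetus 2, each with the largest marker sum of its tissue.

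In the labelled gonad and in maternal blood, none of the 9 genes passed and 0% of all genes did, of 17670 and 16284 tested with edgeR. At an unadjusted p-value under 0.05, 1034 and 1578 genes passed (5.85% and 9.69%), and none of the 9 in either tissue. Slopes in the labelled gonad ran from −0.08 for PKM (adjusted p = 0.927) to 0.12 for LDHA (SE 0.06, adjusted p = 0.872, edgeR). In blood, PFKM had a slope of −0.26 (SE 0.13, adjusted p = 0.536, edgeR), which was −0.06 without the dams of fetuses 2 and 5 (adjusted p = 0.961, edgeR). HK2 followed with 0.16 (SE 0.12, adjusted p = 0.706, edgeR), and LDHA had a slope of −0.0036 (SE 0.04, adjusted p = 0.981, edgeR).

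**Figure D5:**
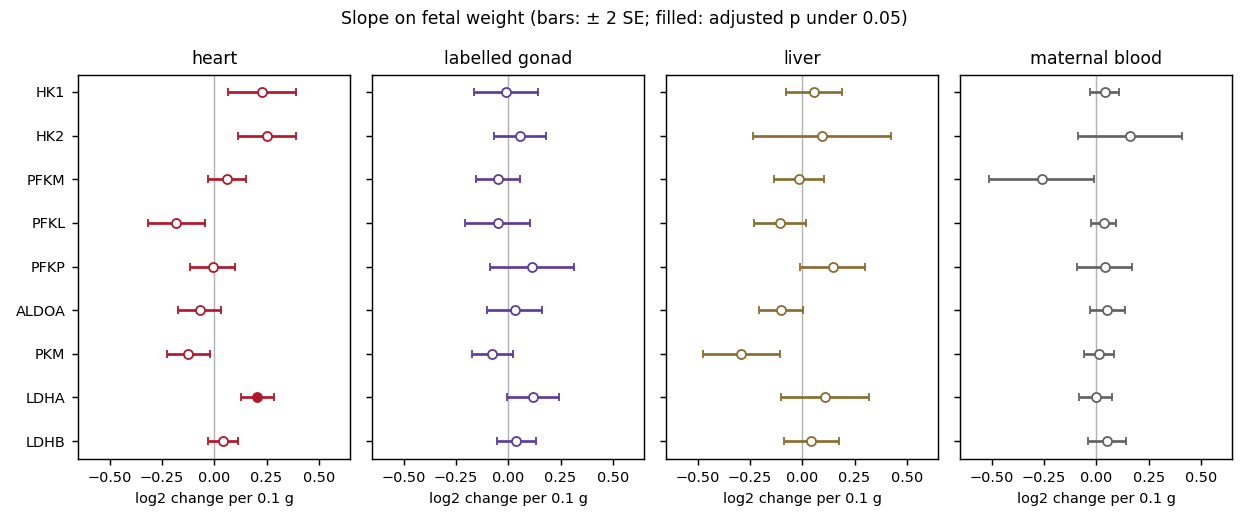
Slope of each isoform on fetal weight, as log2 change per 0.1 g with bars of ± 2 SE, in the heart, labelled gonad, liver and maternal blood. Only LDHA in the heart is filled, with an adjusted p-value under 0.05.

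A curve in place of a line, a natural spline of weight with 3 degrees of freedom, gave none of the 9 genes in any tissue. It gave 0% of genes in the heart, 5.31% in the labelled gonad, 1.71% in the liver and 0.129% in blood (edgeR). At an unadjusted p-value under 0.05 it gave LDHA in the heart (7.99% of genes), HK1 and PFKP in the labelled gonad (22.4%), LDHA in the liver (10.6%), and HK2 and LDHB in blood (9.77%), the lowest adjusted p of these being 0.101 for PFKP.

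Slopes were also compared between organs in 1 model. None of the 9 genes differed between any pair of organs, where 0.0257% of 19489 genes differed between heart and labelled gonad, 7.24% between heart and liver and 4.93% between labelled gonad and liver. The slope of LDHA in the heart exceeded that in the labelled gonad by 0.10 (SE 0.11, adjusted p = 0.9996, edgeR) and that in the liver by 0.08 (SE 0.11, adjusted p = 0.746, edgeR), so the rise of LDHA along weight was not shown to differ between organs. HK1 had the largest difference, 0.25 between heart and labelled gonad (SE 0.12, adjusted p = 0.759, edgeR).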

How the data were processed

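Per the labels and the study's methods, samples that failed RNA quality control were discarded before paired-end sequencing. The authors trimmed reads (Trimmomatic), mapped them (STAR 2.7.0b) to ARS-UCD1.3 and deposited raw counts per Entrez gene (featureCounts, Subread 2.0.3). Strand and multi-mapping options are not given in the sources used here, so overlapping genes and genes with near-identical copies are uncertain. Symbols came from RefSeq (31630 of 35092 identifiers matched). The builds differ and no sequence is printed.

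The 9 genes, the list of 22 and the marker lists were chosen with earlier results of these data known. Named genes were all 9, up to 4 of the list per organ comparison and per tissue trend (largest change past the threshold), ALDOC and PKLR, and the 2 most alike genes. Some results of the list and 1 of the ratios are not reported here. Genes with a count in any organ sample (organs), or at least 10 counts in 4 samples (weight), entered edgeR 4.0.16's quasi-likelihood test in R 4.3.3, with TMM factors and Benjamini-Hochberg adjustment over all genes. SEs are the change divided by the root of F. Ratios used a pseudocount of 0.5 and exact permutation tests (scipy 1.17.1, two-sided, 7 ratios, 21 comparisons). Scripts were tested on simulated data. The planned fits held 26 organ libraries. The matching pairs were found afterwards and merged to 24 samples, with the planned form as an alternative.

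Organs of 1 fetus share its number in the labels, and are thus paired. Deviations from organ means correlated between organs of 1 fetus with medians of 0.17, 0.03 and 0.03 over 6, 6 and 5 fetuses. Fetuses in a merged sample of either organ were left out of these pairs. Alternatives were RLE factors, DESeq2 1.42.0, other filters, the fetus as a block, leaving out mitochondrially encoded genes, each fetus or doubted libraries, covariates, and an additive model (mgcv 1.9.3).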

Additional observations from a re-analysis of the deposited data

Results flagged for a closer look

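In 64 checks of isoform levels (CPM scaled within the tissue) and ratios (log2), 10 samples lay far from the others of their group. Chance gives about 1 in 20 such checks. In maternal blood, the dam of fetus 7 had 61.0 CPM of HK1 (next 51.9), 173 CPM of HK2 (next 88.2) and 670 CPM of ALDOA (next 506). The dam of fetus 2 had 9.98 CPM of PFKM (next 6.30) and the lowest LDHB:LDHA ratio, −0.16 (next 0.29). This dam had the most cardiomyocyte and skeletal muscle markers of the dams, while the mean LDHB:LDHA ratio of the hearts was 1.48. The part of cardiac or skeletal muscle RNA in these values was not tested. The dam of fetus 5 had the lowest PFKL, 25.1 CPM (next 29.3). In the liver, fetus 3 had 119 CPM of PFKL (next 88.2), with the most cardiomyocyte markers of the livers. Heart and liver differed by −0.01 on the log2 scale in PFKL, and the part of cardiac or skeletal muscle RNA in this level was not tested. The liver of fetus 5 had the lowest HK2:HK1 ratio, −5.50 (next −4.03), from 23 counts of HK2. In the labelled gonad, fetus 1 had 781 CPM of PKM (next 629) and fetus 3 the lowest ALDOC:ALDOA ratio, −5.25 (next −5.13).

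Slopes on fetal weight passed the test of a difference between organs for the listed genes PGK1 and HKDC1 (edgeR, log2 per 0.1 g). The slope in the heart exceeded that in the liver by 1.28 for PGK1 (adjusted p = 0.00592) and by 1.03 for HKDC1 (adjusted p = 0.0193). PGK1 counts were low in the livers, at 62 and 55 in fetuses 3 and 4 and from 6 to 18 in the others. The livers of fetuses 3 and 4 also had the most cardiomyocyte markers, and the part of these livers in the PGK1 difference was not tested. HKDC1 had 0 to 14 counts in the hearts and did not pass the filter there, so its heart slope has no usable values and nothing is read from its difference.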

How the results depend on the processing

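Over the 55 alternatives, the count of isoforms that differed was 8 between heart and labelled gonad and 7 or 8 between heart and liver. Between labelled gonad and liver it was 6 or 7. The count of slope differences was 0 in all 51 alternatives. The 1 isoform with a slope in the heart became 2 with RLE factors, 3 with DESeq2, and 0 with the transfer group or the mitochondrial share as covariate, with transfer group in place of weight, or without the 2 heaviest fetuses, and ran from 0 to 5 with 1 fetus left out; the cause was not tested. In the spline, the additive model gave 3 isoforms in the heart, 2 in the liver and 2 in blood, where it gave 26.5%, 23.4% and 10.9% of all genes, and leaving out 1 fetus gave 0 to 1 in the labelled gonad and in blood. Over all genes, the heart count of 1101 became 0 under either covariate, and the liver count of 258 became 0 without the livers of fetuses 3, 4 and 5.

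With the fetus as a replicate block, counts between organs were 8, 7 and 6. Paired ratios, without the fetuses in a merged sample of either organ, had adjusted p-values from 0.0547 to 0.188 (exact permutation test), a design too small to pass for most. In the order heart over labelled gonad, heart over liver and labelled gonad over liver, the paired log2 differences were −1.21, 3.25 and 4.41 for HK2:HK1, 1.15, −1.26 and −2.35 for PFKL:PFKM, 3.34, 1.82 and −1.35 for PFKP:PFKM, −1.57, 0.33 and 2.04 for LDHB:LDHA, and −3.22, −3.48 and −0.46 for ALDOC:ALDOA. For PKLR:PKM they were −8.02 and −8.56 against the liver. The ALDOC:ALDOA difference between labelled gonad and liver was −0.40 without the matching libraries and ran from −0.57 to −0.35 with 1 fetus left out, and the LDHB:LDHA difference between heart and liver from 0.36 to 0.56. In the paired form every ratio lost its call. Among the 9 genes, the block changed only the call of ALDOA between labelled gonad and liver. HK2 in the liver and PFKM in blood rest on the fewest counts, from 23 and 62.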
